A study of Mus musculus with 6 samples.

Results

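The genes described here build desmosomes and hemidesmosomes, the junctions that anchor intermediate filaments to neighbouring cells and to the basement membrane. They were the rows Dsp, Dsg2, Jup, Pkp1, Pkp2, Pkp3 and Ppl (7 desmosome genes) and Itgb4, Plec and Dst (3 hemidesmosome genes), chosen by name, 10 of the 12803 genes in the table. Messenger RNA was sequenced from mouse kidney cells in 6 libraries, 3 of each of a pair of lines. The KO group was the line labelled Podocyte Derived Myosin 1e KO, with the genotype Myosin 1e KO. The WT group was the line labelled Murine Podocyte Cell (Mundel), with the genotype WT, which is known as a conditionally immortalised podocyte line. A heterozygous genotype, also named in the design text, was not analysed here. Treatment and culture time are not given in the labels, and neither is whether the KO line is a single clone. With 1 line for each genotype, genotype and line cannot be told apart, and all differences below are between these lines. The replicates are called biological, without word on how cultures were separated, so the p-values cover only the spread among these libraries, which may be technical.

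Desmosomes join epithelial and heart muscle cells. Desmosomal cadherins (desmogleins and desmocollins) span the membrane, the armadillo proteins plakoglobin and the plakophilins bind their tails, and desmoplakin links this plaque to keratin or desmin filaments. In hemidesmosomes the integrin alpha6beta4 binds laminin-332 outside the cell, and the plakins plectin and dystonin tie its cytoplasmic side to keratins. Podocytes in the kidney are known for vimentin filaments and for foot processes held by integrin alpha3beta1, and mature podocytes are joined by slit diaphragms, whereas many simple and stratified epithelia carry desmosomes.

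The listed genes held 35447096 to 42106461 reads per library. Myo1e, the targeted gene, was at 16.3 to 18.9 CPM (read counts scaled to a common library size) in the KO libraries and at 168 to 184 CPM in the WT libraries, so it went with the labels in all 6. Of the podocyte markers, Synpo, Podxl and Cd2ap were read in both lines, Wt1 was at 0.125 ± 0.101 CPM in KO (0.0674 CPM without KO replicate 3) and 4.40 ± 2.00 CPM in WT (mean ± SD, n = 3 libraries, here and below), and Nphs1 and Ptpro were not in the table used here. Of 12616 genes tested with limma on the deposited log2 CPM, 68.1% were called in either direction at a Benjamini-Hochberg adjusted p under 0.05, 34.3% higher and 33.8% lower in KO. The groups did not overlap in 73.5% of the genes tested.

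The 10 genes split by their level in the WT line. Dsp, Dsg2, Pkp1, Pkp3, Ppl and Itgb4 stayed under 1 CPM in every WT library and were at 26.1 CPM or more in every KO library. Jup, Pkp2, Plec and Dst were at 54.5 CPM or more in all 6 libraries. Of the 10 tested, 8 were called higher and 2 lower in KO, against 34.3% and 33.8% of all genes tested, with a median log2 fold change of 7.52 against 0.01 over all genes. The 6 genes near 0 in WT passed the filter on low values only through the KO libraries and so had to differ, and nothing is read from that count or median. Over the 11003 genes above 1 CPM in all libraries, 3653 were higher and 3463 lower in KO, and the 4 genes of this kind here divided into 2 higher and 2 lower. In bulk libraries, fewer cells with a transcript and less of it per cell cannot be told apart. The plot of all tested genes shows the 6 genes apart from the diagonal and the other 4 near it.

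**Figure D1:**
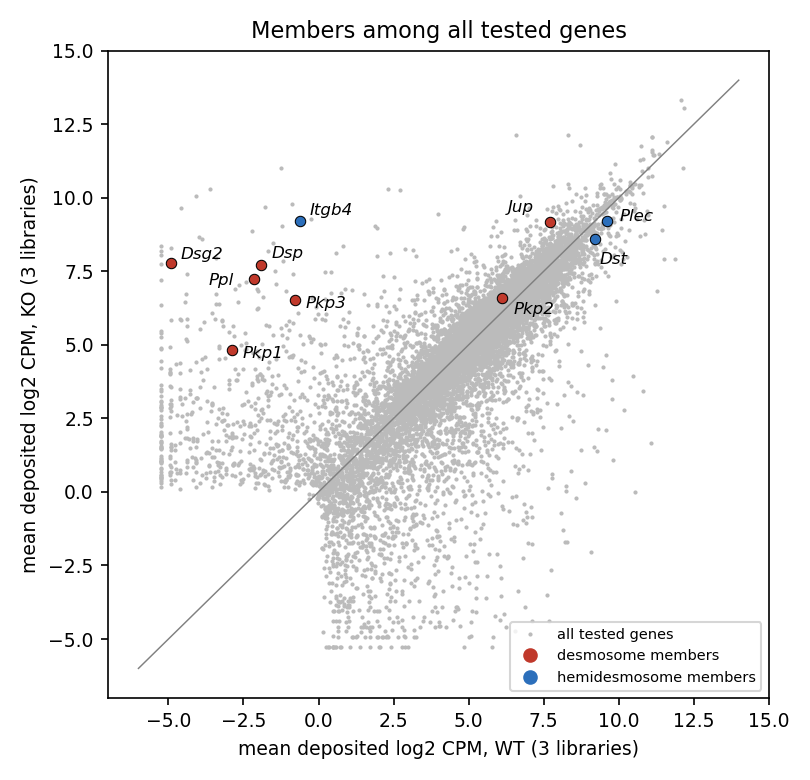
Mean deposited log2 CPM in the 3 KO libraries (y axis) against the 3 WT libraries (x axis) for the 12616 genes tested, with desmosome members in red and hemidesmosome members in blue. The line marks equal levels; 6 members lie in the upper left, below 0 in WT, and 4 lie along the line.

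**Figure D2:**
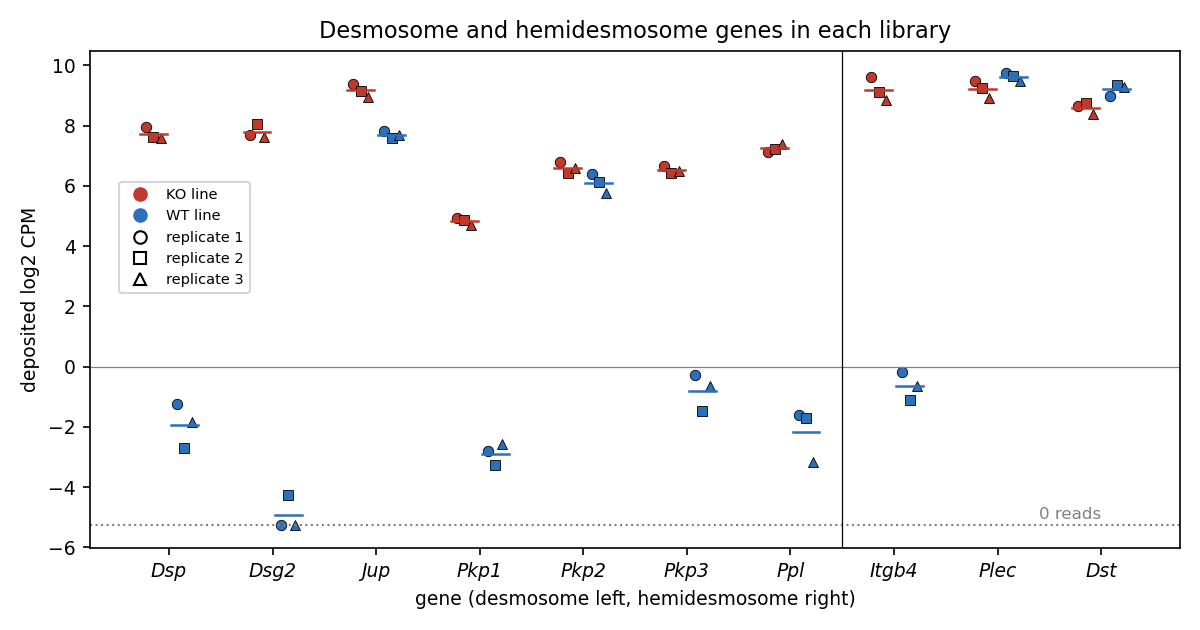
Deposited log2 CPM (y axis, with the authors' prior included) of the 10 genes in each library, with KO in red, WT in blue, a marker shape for each replicate and a bar at each mean. The dotted line at -5.26 is the value of 0 reads, where Dsg2 lies in 2 WT libraries.

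The desmosomal cadherin Dsg2 had the lowest WT level of the 10 genes. Desmoglein 2 is the desmoglein of simple epithelia and heart (chromosome 18, 20558074 to 20604521, plus strand, GRCm38, protein-coding, as are all members). It was at 207, 264 and 197 CPM in KO libraries 1 to 3 and at 0, 0.0259 and 0 CPM in the WT libraries. That is 25061 reads against 1, the 1 read lying in WT replicate 2. Without that library the KO line was at least 5753-fold higher, measured against 3 reads over the WT group. The other desmoglein in the table was Dsg3, a desmoglein of stratified epithelium, which was at 3.23 ± 0.412 CPM in KO and had 0 reads in WT, so that KO was at least 126-fold higher against 3 reads over the group. Dsg1a, Dsg1b, Dsg1c, Dsg4 and the desmocollins Dsc1, Dsc2 and Dsc3 were not in the table used here.

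Desmoplakin followed the same pattern with a few reads in WT. Dsp (chromosome 13, 38151294 to 38198577, plus strand) encodes the plakin of the desmosomal plaque. It was at 251, 197 and 193 CPM in KO and at 0.398, 0.129 and 0.254 CPM in WT. Every KO library stood above every WT library, with 24371 reads against 31 and a ratio of reads per depth of 809 (exact 95% Clopper-Pearson interval 570 to 1192, which covers counting error only, as do the others below). The fitted log2 fold change was 9.65 (SE 0.33, adjusted p = 6.91e-08 by limma), a value that depends on the prior where WT is near 0.

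Plakoglobin had the highest WT level of the 7 desmosome genes chosen, in CPM and per kilobase of exon, and rose in KO. Jup (chromosome 11, 100368958 to 100397763, minus strand) encodes an armadillo protein of both desmosomes and adherens junctions, so its reads need not belong to desmosomes. It was at 675, 573 and 501 CPM in KO and at 227, 191 and 208 CPM in WT. All KO libraries were above all WT libraries, by 2.80 times (95% interval 2.76 to 2.84), with a log2 fold change of 1.48 (SE 0.12, limma adjusted p = 1.15e-05). Per kilobase of exon, Jup exceeded Dsp 4.10 ± 0.243 times in KO and 1431 ± 703 times in WT, and with the longest transcripts as the lengths 8.18 ± 0.484 and 2854 ± 1402 times. Its relative Ctnnb1, beta-catenin of the adherens junction, was at 763.5 ± 37.4 CPM in WT and 986 ± 62.8 CPM in KO (log2 fold change 0.37, limma adjusted p = 0.00905, or 0.0501 without WT replicate 2). The per-kilobase ratio of Jup to Ctnnb1 was 0.438 to 0.519 in the KO libraries and 0.214 to 0.232 in the WT libraries. With the longest transcripts as the lengths it was 0.666 ± 0.0577 in KO and 0.308 ± 0.0146 in WT.

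The start regions shown are those of Dsp, near 0 in WT, and of Jup and Dst, read in both lines. These were the 3 members for which RefSeq promoter entries were taken. Member entries that were left out are named with the data processing below. Each start region shown runs from 250 bases before to 50 bases after an annotated start on the gene's strand in GRCm38.p6. Capitals mark the E-box CACCTG or its reverse complement CAGGTG, the letters bound by Zeb and Snail repressors. The palindrome AACCGGTT, a form of the grainyhead site, was searched on both strands and does not overlap the E-box. The Dsp window is chr13:38151044-38151343 (plus strand), the Jup window chr11:100397741-100398040 (minus strand), and the Dst windows chr1:34011345-34011644 and chr1:34160010-34160309 (plus strand).
Dsp: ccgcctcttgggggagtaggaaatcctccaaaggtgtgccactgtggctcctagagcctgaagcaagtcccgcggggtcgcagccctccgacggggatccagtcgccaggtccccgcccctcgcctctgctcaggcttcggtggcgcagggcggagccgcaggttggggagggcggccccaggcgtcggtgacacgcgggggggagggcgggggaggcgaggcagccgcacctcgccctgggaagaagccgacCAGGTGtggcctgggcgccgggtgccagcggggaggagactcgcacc
Jup: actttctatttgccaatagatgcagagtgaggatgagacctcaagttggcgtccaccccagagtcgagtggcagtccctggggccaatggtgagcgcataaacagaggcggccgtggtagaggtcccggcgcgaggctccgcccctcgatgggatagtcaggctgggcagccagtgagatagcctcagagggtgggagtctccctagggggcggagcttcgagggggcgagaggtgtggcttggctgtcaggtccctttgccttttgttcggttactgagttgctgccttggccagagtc
Dst, first start: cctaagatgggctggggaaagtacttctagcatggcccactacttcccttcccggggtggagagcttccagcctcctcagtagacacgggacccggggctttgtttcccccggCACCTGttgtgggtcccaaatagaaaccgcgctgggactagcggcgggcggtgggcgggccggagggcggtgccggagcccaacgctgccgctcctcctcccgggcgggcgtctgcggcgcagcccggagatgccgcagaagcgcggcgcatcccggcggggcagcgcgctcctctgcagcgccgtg
Dst, second start: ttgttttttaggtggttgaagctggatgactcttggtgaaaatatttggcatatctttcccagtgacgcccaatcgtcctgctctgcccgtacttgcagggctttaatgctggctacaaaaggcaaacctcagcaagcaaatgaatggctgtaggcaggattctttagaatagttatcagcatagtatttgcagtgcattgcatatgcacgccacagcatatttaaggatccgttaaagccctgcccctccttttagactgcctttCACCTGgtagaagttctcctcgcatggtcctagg

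The Dsp window held 1 E-box, beginning 4 bases into the transcript, and the Jup window held 0. Each Dst window held 1, at -137 and at 17 from its start. An E-box was present in 20.2% of 32851 promoter windows of this length, and AACCGGTT in 0.146% of them and in none of these 4. The matches describe letters only. Zeb1, which encodes a repressor that binds such E-boxes, was at 102 ± 0.467 CPM in WT and 1.71 ± 0.160 CPM in KO, and Grhl2, a grainyhead activator of epithelial genes, was at 0.221 ± 0.0631 CPM in WT and 74.3 ± 8.08 CPM in KO. Their part in the levels of the junction genes was not tested.

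Plakophilins, the armadillo proteins that cluster desmosomal cadherins, differed in kind more than in presence. Pkp2 (chromosome 16, 16213318 to 16272712, plus strand), the plakophilin of heart and simple epithelia, was at 110.3, 86.5 and 95.9 CPM in KO and at 83.4, 70.5 and 54.5 CPM in WT. The groups came close, 86.5 CPM in the lowest KO library against 83.4 CPM in the highest WT library, without overlapping. The log2 fold change was 0.50 (SE 0.16, limma adjusted p = 0.0197, with 0.00436 to 0.078 over the alternatives), and the call was lost when either KO replicate 1 or KO replicate 3 was left out, with limma adjusted p = 0.078 and 0.0518.

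Pkp3 (chromosome 7, 141078218 to 141090510, plus strand), which binds the widest range of desmosomal partners, was at 102, 85.3 and 89.9 CPM in KO and at 0.796, 0.336 and 0.622 CPM in WT. No library of one line came near those of the other, and the ratio was 157 (95% interval 124 to 202) from 10507 reads against 69. Pkp1 (chromosome 1, 135871395 to 135919207, minus strand), the plakophilin of stratified epithelium, was at 30.6, 29.4 and 26.1 CPM in KO and at 0.117, 0.0776 and 0.141 CPM in WT. It had the lowest KO level of the 10 genes, with a ratio of 258 (151 to 485) from 3256 reads against 13. The log2 fold changes of Pkp1 and Pkp3, 7.72 and 7.32, differed by 0.41 (SE over libraries 0.23), and that of Pkp2 was 6.81 below that of Pkp3 (SE 0.37). Pkp4, an armadillo relative found mostly at adherens junctions, went the other way, from 175 ± 8.94 CPM in WT to 107 ± 9.52 CPM in KO (log2 fold change -0.72, limma adjusted p = 0.000115).

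In shares of the summed plakophilin CPM per kilobase, Pkp2 made up 98.6 ± 0.565% in WT and 36.8 ± 1.18% in KO. Pkp3 took 1.25 ± 0.495% in WT and 51.6 ± 0.276% in KO, and Pkp1 0.178 ± 0.0820% and 11.6 ± 1.09%. These are shares of transcripts per exon length, drawn from the union of annotated exons. With the longest transcript as the length, Pkp2 and Pkp3 were at 33.3 and 31.6 CPM per kilobase in KO, so which of them leads there depends on the length used, while Pkp2 led in WT with both lengths (23.7 against 0.200 with the longest transcript).

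**Figure D3:**
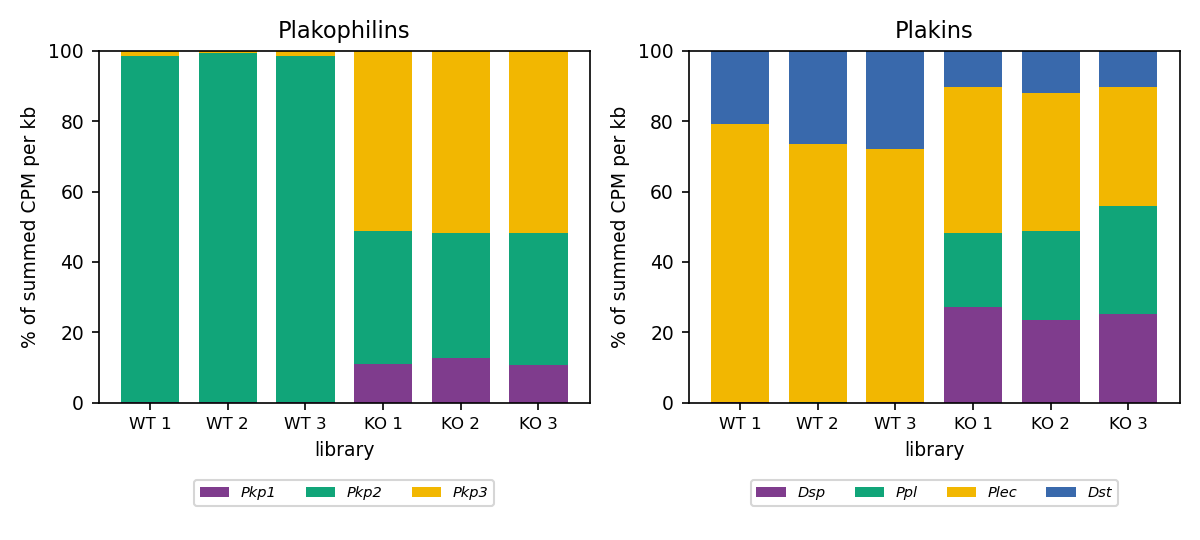
Share of the summed CPM per kilobase of exon (y axis, percent) taken by each plakophilin (left) and by each plakin among the members (right) in the 6 libraries (x axis). Pkp2 fills 98.1% to 99.2% of the WT bars and 35.4% to 37.6% of the KO bars, and Plec and Dst fill nearly all of the WT plakin bars.

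Periplakin, a plakin that links the plaque and the cornified envelope to keratins, was also near 0 in WT. Ppl (chromosome 16, 5086291 to 5132421, minus strand) was at 139, 151 and 167 CPM in KO and at 0.304, 0.285 and 0.0848 CPM in WT. The KO libraries were all above the WT libraries, with a ratio of 658 (95% interval 452 to 998) from 17246 reads against 27. Its partner envoplakin, Evpl, went from 1.97 ± 0.274 to 54.4 ± 4.40 CPM (log2 fold change 4.78, limma adjusted p = 3.36e-08). Dsp and Ppl had log2 fold changes of 9.65 and 9.40, a difference of 0.25 with an SE over libraries of 0.70.

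The hemidesmosome genes divided between the integrin subunit and its plakins. Itgb4 (chromosome 11, 115974709 to 116008412, plus strand) encodes the integrin beta4 subunit, whose long cytoplasmic tail binds plectin. It was at 791, 556 and 457 CPM in KO and at 0.867, 0.440 and 0.622 CPM in WT. The KO libraries varied by more than those of any other member (coefficient of variation 28.5%), and still lay far from WT, with a ratio of 933 (745 to 1184) from 68879 reads against 76. Its partner Itga6, integrin alpha6, which also pairs with beta1, was present in both lines and went from 69.8 ± 8.57 to 262 ± 24.9 CPM (log2 fold change 1.91, limma adjusted p = 1.2e-06). Per kilobase, Itgb4 stood to Itga6 as 0.0117 ± 0.00267 in WT and 2.93 ± 0.574 in KO, or as 0.00630 ± 0.00144 and 1.58 ± 0.310 with the longest transcripts as the lengths.

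The plakins Plec and Dst were lower in the KO line, by amounts under 2-fold. Plec (chromosome 15, 76170974 to 76232574, minus strand) encodes plectin, which crosslinks intermediate filaments with actin, microtubules and several kinds of adhesion. It was at 719, 615 and 481 CPM in KO and at 854, 803 and 710.5 CPM in WT. The groups overlapped, since KO replicate 1 was above WT replicate 3. The log2 fold change was -0.40 (SE 0.15, limma adjusted p = 0.0442, with 0.0159 to 0.113 over the alternatives). Leaving out any of 4 libraries ended the call, with adjusted p = 0.0784 for KO replicate 2, 0.113 for KO replicate 3, 0.113 for WT replicate 1 and 0.106 for WT replicate 2. Median centring, quantile normalization and a fit with no intensity trend ended it too. The log2 fold change was -0.24 without KO replicate 3.

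Dst (chromosome 1, 33908225 to 34308661, plus strand) encodes dystonin, made as an epithelial form of the hemidesmosome and as neuronal and muscle forms from other starts. It was at 403, 429 and 334 CPM in KO and at 509, 660 and 625 CPM in WT. All KO libraries were below all WT libraries, and the log2 fold change was -0.62 (SE 0.13, limma adjusted p = 0.00306). The deposited values are given per gene, so reads from the start regions printed above were summed and the forms could not be told apart. The same holds for the alternative first exons of Plec. The log2 fold changes of Plec and Dst differed by 0.22 (SE over libraries 0.20).

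**Figure D4:**
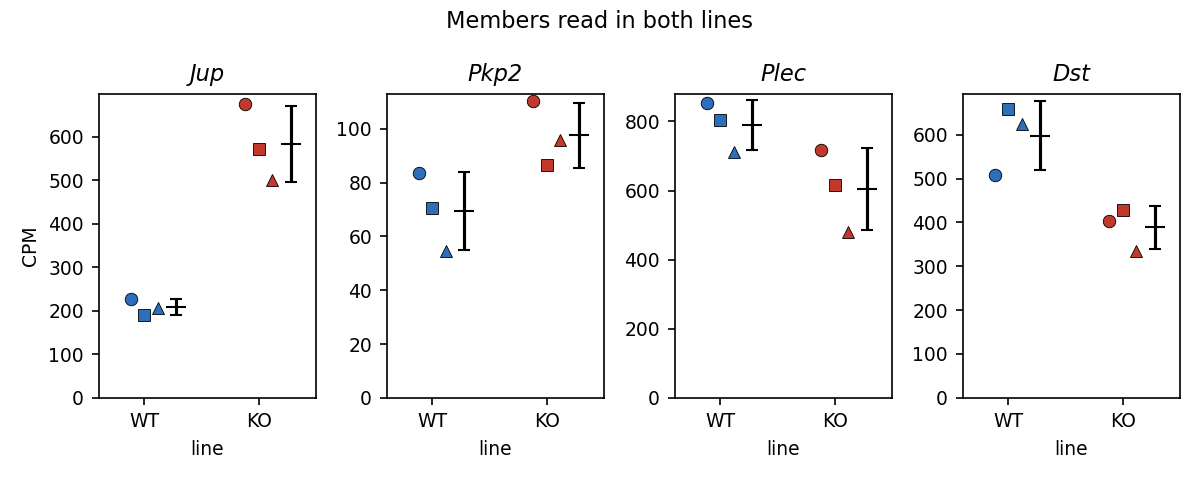
CPM (y axis, from 0) of the 4 members read in both lines, with a point for each library (marker shape by replicate), and the mean ± SD of 3 libraries beside them. Jup and Pkp2 are higher in KO and Dst is lower without overlap, and the Plec groups overlap between 710.5 and 719 CPM.

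With all regroupings of the 6 libraries enumerated, the two-sided exact permutation p was 0.2 for Plec and 0.1 for the other 9 genes, the smallest that 3 libraries against 3 allow. So 9 of the 10 genes had groups that did not overlap, against 73.5% of all genes tested, and the 6 that were near 0 in WT had to be among them. Dsp, Dsg2, Dst and Itgb4 share 1.11% to 7.66% of their exonic bases with non-coding genes on the opposite strand, none of which was in the table, and Plec shares 1.13% with Parp10 on its own strand.

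Per kilobase of exon, the levels in the KO line ran from Jup (90.6 ± 13.6 CPM per kilobase) and Itgb4 (85.8 ± 24.4), which did not differ beyond their spread, to Plec (33.4 ± 6.58). Dsg2 (26.9 ± 4.39), Pkp3 (25.5 ± 2.34), Dsp (22.1 ± 3.36) and Ppl (22.1 ± 2.04) followed, each within the spread of its neighbour in that order. Pkp2 (18.2 ± 2.24), Dst (9.45 ± 1.19) and Pkp1 (5.71 ± 0.460) came last with this length. In the WT line the order was Plec (43.6 ± 4.01), Jup (32.4 ± 2.79), Dst (14.5 ± 1.92) and Pkp2 (13 ± 2.71), the last pair lying within their spread. The other 6 were between 0.00104 and 0.162 CPM per kilobase. This order depends on the length used. With the longest transcript as the length, Jup and Itgb4 were apart in KO (182 against 96.9 CPM per kilobase), and Pkp2 (33.3) stood above Pkp3 (31.6), Ppl (24.5) and Dsp (22.3). In WT, Jup was then above Plec (65.0 against 51.1 CPM per kilobase).

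As shares of the 4 member plakins per kilobase, Plec went from 74.8 ± 3.76% in WT to 38.1 ± 4.02% in KO and Dst from 25.1 ± 3.79% to 10.9 ± 1.02%. With the longest transcripts as the lengths, Plec went from 66.4 ± 4.51% to 37.9 ± 3.92% and Dst from 33.5 ± 4.54% to 16.3 ± 1.40%. With the union of exons, Dsp and Ppl made up 25.3 ± 1.83% and 25.7 ± 4.82% in KO and 0.0466 ± 0.0236% and 0.0550 ± 0.0282% in WT. In CPM, Plec in KO was at 76.6% and Dst at 65.0% of the WT mean. Summed over the 7 desmosome genes the level was 1269.7 to 1515 CPM in the KO libraries and 262 to 312 CPM in the WT libraries, and over the 3 hemidesmosome genes 1273 to 1912 CPM and 1336 to 1463 CPM, which overlap.

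Within a line, single libraries led or trailed for several members. KO replicate 1 had the highest value of its group in 7 of the 10 genes and KO replicate 3 the lowest in 7, and in WT, replicate 1 was highest in 7. Over all 12616 genes tested KO replicate 1 was highest in 3569, KO replicate 3 lowest in 4831 and WT replicate 1 highest in 5264. The coefficient of variation in KO ran from 8.05% for Pkp1 to 28.5% for Itgb4, while its median over 9284 genes with a mean above 10 CPM was 7.89% and its 90th percentile 16.3%. Itgb4 and Plec (19.7%) were above that percentile and Dsg2 was at it. Whether these deviations come from the cultures or from the libraries was not tested.

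The other genes of these junctions were counted from lists chosen by known function, to be read beside the 34.3% higher and 33.8% lower over all genes tested and their median of 0.01. A gene that passed the filter on low values only through 1 line had to differ, so the number of such genes is given with each list. Of 13 other desmosome genes 6 were in the table and tested, 3 higher and 2 lower, with a median log2 fold change of 1.19. Only Dsg3 of these passed the filter through KO alone. Besides Dsg3 and Evpl, Perp, a membrane protein of desmosomes and a p53 target, rose from 98.7 ± 23.0 to 487 ± 56.4 CPM (log2 fold change 2.32). Pkp4 and corneodesmosin, Cdsn, fell, the latter from 20.0 ± 4.10 to 7.77 ± 2.63 CPM. Pnn, a protein of nuclear speckles also described at desmosomes, was at 87.2 ± 10.2 CPM in WT and 90.2 ± 3.31 CPM in KO and did not pass (log2 fold change 0.05, limma adjusted p = 0.637).

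Of 8 other hemidesmosome genes and laminin-332 chains, 7 were tested and 6 were higher in KO, with a median log2 fold change of 2.94, and 1 (Lamb3) passed the filter only through KO. The laminin beta3 chain Lamb3 went from 0.357 ± 0.220 to 359 ± 50.5 CPM, or from 0.231 CPM if WT replicate 1 is left out. The alpha3 chain Lama3 rose from 22.1 ± 7.92 to 296 ± 81.3 CPM, and Lad1, ladinin of the basement membrane zone, from 54.3 ± 6.61 to 416 ± 14.5 CPM. The ratio of Itgb4 to Lamb3 per kilobase was 1.56 ± 0.241 in KO and 1.88 ± 0.492 in WT. With the longest transcripts as the lengths it was 1.3 ± 0.2 and 1.57 ± 0.41. The WT ratio rests on only 76 reads of Itgb4 and 43 of Lamb3 over the group. The tetraspanin Cd151, which binds laminin-binding integrins, did not pass (377 ± 47.8 against 425 ± 96.3 CPM, log2 fold change -0.16, 95% interval -0.54 to 0.22, limma adjusted p = 0.417). Col17a1, the transmembrane collagen of type I hemidesmosomes, was not in the table used here.

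Of the other plakins, Eppk1 (epiplakin, a keratin-binding plakin) went from 0.637 ± 0.0882 to 40.4 ± 4.44 CPM and passed the filter only through KO. Macf1, the actin-microtubule crosslinker most like dystonin, was at 784 ± 63.4 CPM in WT and 896 ± 155 CPM in KO and did not pass (log2 fold change 0.18, limma adjusted p = 0.26). The plot of fold changes sets the members beside these genes.

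**Figure D5:**
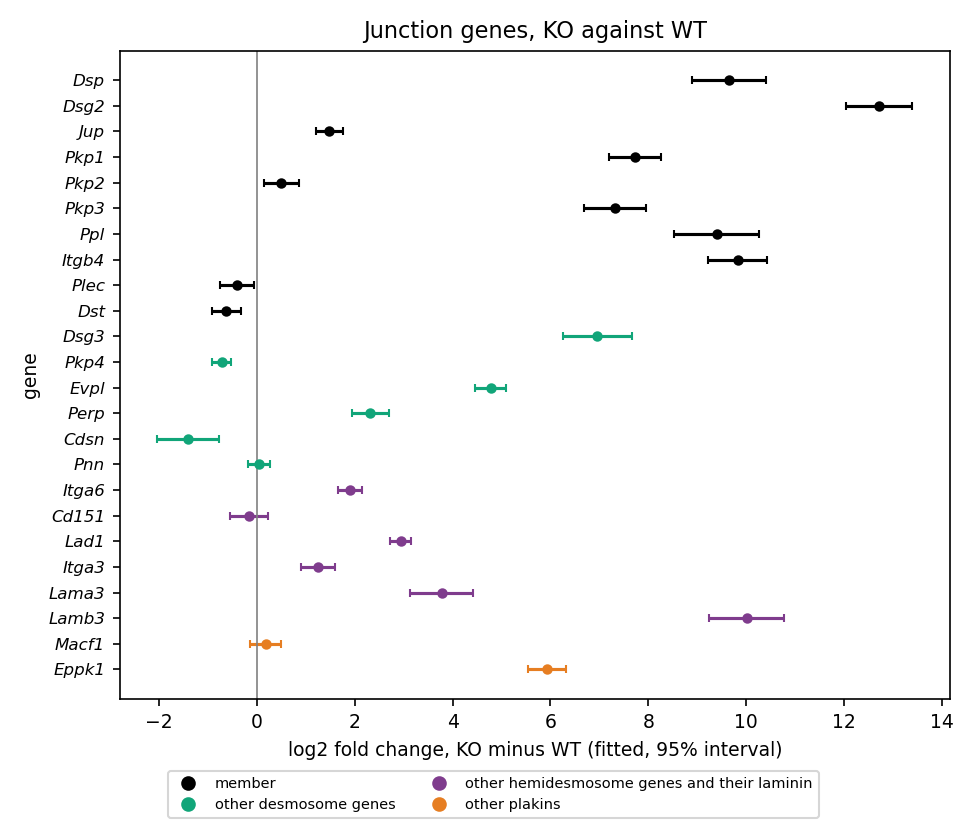
Fitted log2 fold change, KO minus WT (x axis, with 95% intervals from limma), of the 10 members and of other tested junction genes (y axis). Members span -0.62 (Dst) to 12.71 (Dsg2), and the intervals of Pnn, Cd151 and Macf1 include 0.

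The filaments that these junctions anchor differed in type between the lines. Of 16 intermediate filament genes 11 were tested, 9 higher and 2 lower in KO, with a median log2 fold change of 3.87. Of the 11, 4 passed the filter only through KO and had to differ, so the count and median are descriptions. The simple-epithelial keratin Krt8 was at 2065 ± 119 CPM in KO and 0.405 ± 0.142 CPM in WT. Vim, encoding vimentin, fell from 2168 ± 257 to 3.44 ± 1.63 CPM, and Synm, encoding synemin, from 34.0 ± 5.70 to 13.6 ± 4.83 CPM. Nes, encoding nestin, which is also no keratin, was read in both lines and went from 449.5 ± 85.4 to 627 ± 112 CPM. Its log2 fold change was 0.49 (limma adjusted p = 0.0328, and up to 0.118 over the alternatives). Of 7 tested adherens junction genes 4 were higher and 2 lower (median 0.37), and 1 (Cdh1) passed the filter only through KO. Cdh1, E-cadherin, rose from 0.525 ± 0.105 to 891 ± 88.7 CPM. Cdh2, N-cadherin, rose as well, from 313 ± 40.2 to 754 ± 51.2 CPM (log2 fold change 1.27, limma adjusted p = 1.91e-05). The catenin Ctnnd1 rose from 54.4 ± 4.79 to 127 ± 26.4 CPM, and Cdh11, a mesenchymal cadherin, fell from 306 ± 13.1 to 1.07 ± 0.478 CPM.

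Of 14 transcription factors known to promote or repress these junctions, 5 were higher and 8 lower in KO, with a median log2 fold change of -1.38, and 4 passed the filter only through KO and 3 only through WT. Besides Grhl2, those higher were led by Ovol2, a repressor of Zeb1, at 2.12 ± 0.563 CPM in KO with 0 reads in WT (at least 83.4-fold higher against 3 reads over the group). Zeb1, Snai2 (15.1 ± 0.728 to 0.401 ± 0.164 CPM) and Snai1 (5.62 ± 1.42 to 0.431 ± 0.146 CPM) led those that fell. Grhl1 did not pass, at 7.46 ± 1.35 CPM in WT and 7.47 ± 0.860 CPM in KO. Trp63, the p63 regulator of stratified epithelium, was lower in KO, at 0.614 ± 0.175 against 2.91 ± 0.685 CPM.

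Marker genes of some other cell types differed between the lines as well. All 8 simple-epithelium markers (Epcam, Cdh1, Krt8, Krt18, Krt19, Cldn3, Cldn4 and Cldn7) were higher in KO, summing to 6841 to 7327 CPM in the KO libraries and 1.06 to 1.19 CPM in the WT libraries, with 2 of them at 0 reads in WT. All 8 passed the filter only through KO and so had to differ, against 34.3% of all genes called higher. The 4 tested markers of stratified epithelium summed to 8.28 to 11.7 CPM in KO and 2.97 to 5.48 CPM in WT. Of the 4, 3 were higher and 1 lower, 2 having passed the filter only through KO and 1 only through WT. Krt14, Krt6a and Col17a1 were not in the table. All 5 mesenchymal markers in the table were lower in KO, against 33.8% of all genes called lower. Of these 5, 1 (Pdgfrb) passed the filter only through WT. Pdgfra, Thy1 and Col3a1 were not in the table. The 5 summed to 2528 to 2960.4 CPM in WT, most of it Vim, and to 6.79 to 9.47 CPM in KO. Of 5 parietal markers 2 were higher and 3 lower. All 4 tubule markers in the table (Cdh16, Aqp1, Lrp2 and Gata3) were lower in KO. They summed to 1577.1 to 2460.0 CPM in the WT libraries and 85.7 to 129.2 CPM in the KO libraries. The other tubule markers on the list, Slc12a1, Slc12a3, Umod and Aqp2, were not in the table. The 5 podocyte markers in the table summed to 961.1 to 1087.4 CPM in WT and 619.1 to 826.9 CPM in KO. Of these 5, 2 were higher and 2 lower in KO, and 1 (Wt1) passed the filter only through WT. Most of their WT sum was Synpo, at 681 ± 59.5 CPM. The WT line, labelled as podocytes, thus also held many reads of these 4 tubule markers. Of 5 leukocyte markers 2 were in the table and neither passed. No endothelial marker on the list was in the table. The part of cell identity in the levels of the junction genes was not tested.

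Over the 6 libraries, the log2 CPM profile nearest to that of Dsp outside these lists belonged to Myh14, a nonmuscle myosin heavy chain, and Lsr, a receptor of tricellular tight junctions, each at a Euclidean distance of 1.12, followed by Sprr1a, a cornified envelope precursor, at 1.64. The nearest to Plec were the spectrin Sptbn1 (0.48), the integrin activator Tln1 (0.50) and the phosphatase Ptpn14 (0.51). Unlike Plec, none of these 3 had overlapping groups, and their log2 fold changes were -0.54, -0.63 and -0.65 (limma adjusted p = 0.000616, 0.000918 and 0.000615).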

How the data were processed

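RNA was sequenced from 6 libraries, 3 for each line. Per the labels' protocols, RNA came from an RNeasy Plus kit and 100 ng went into stranded mRNA libraries. The authors' tools included STAR 2.7.3a, Trimmomatic 0.39, edgeR, and featureCounts with Subread 1.6.4, on GRCm38, per the submitters' processing notes. The strand setting, annotation, filter and prior were not given in the sources used here. The authors deposited log2 CPM with a prior. Unlogged and less the value of a gene without reads (log2 -5.26), 100% of entries came out as whole reads within 0.001, which gave reads, CPM without the prior and scaling factors of 0.983 to 1.02. At these depths 3 reads equal 0.0703 to 0.0856 CPM.

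The main test was limma 3.58.1 in R 4.3.3 (lmFit, eBayes with an intensity trend) on the deposited log2 CPM of 12616 genes above 0 log2 CPM in at least 3 libraries. 187 were not tested. Adjusted p-values are Benjamini-Hochberg over all genes tested. On simulated reads of this comparison (11964 genes, dispersion 0.01) it called 100 of 100 genes changed 2-fold, 98 of 98 changed 4-fold and 11 of 11766 unchanged. Only genes with a WT mean above 1 CPM were simulated, so the 6 members near 0 in WT lay outside it. No change under 2-fold, as in Plec, Pkp2 and Dst, was simulated, and far fewer genes were changed than were called in the data. Of 15 alternatives, 9 changed the filter, prior, test, variance model, scaling or block and 6 left out a library. Lengths and positions came from GENCODE M21 (GRCm38). Promoters came from RefSeq, with entries taken for 3 of the members and member entries on chromosome 18 (Dsg2) left out. The members, lists and rules were chosen with earlier results of these data known. All members were named, and from each list up to 3 called genes in each direction, those that did not pass where they numbered 5 or fewer, and the 3 nearest profiles to Dsp and to Plec. Myo1e and the cell type markers were also named. Ctnnb1, Trp63, Lad1, Itga6 and Nes, outside that rule, were chosen after their values were seen. Some listed genes are counted but not reported here by name.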

Additional observations from a re-analysis of the deposited data

How the results depend on the processing

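The calls of Jup, Dst and the 6 genes near 0 in WT kept their direction and side of the threshold under all 15 alternatives, and no member reversed. Members called lower numbered 1 in place of 2 without an intensity trend, with median centring and with quantile normalization, in each case because Plec did not pass (adjusted p = 0.0675, 0.0615 and 0.0576). Leaving out single libraries gave 1 to 2 members called lower, 7 to 8 called higher (Pkp2 being the one lost) and 7573 to 8323 genes called in all. limma voom on the recovered reads called 8599 genes. Quantile normalization moved the median of all genes from 0.01 to 0.06. The numbers did not pair the samples: deviations of same-numbered libraries correlated at 0.101, 0.0811 and -0.0951. With the replicate block, 8395 genes were called in place of 8590, and all members kept their calls. Dsg2 went from 12.71 to 10.64 on the log2 scale with a prior of 5 reads and to 13.52 with 0.5, so its fitted size depends on the prior. The exonic length moved 10 of 20 levels per kilobase by more than the spread between libraries, and, in an alternative chosen after seeing the data, 20 of 34 ratios and shares per kilobase. Depth limits the WT levels of Dsg2, Pkp1, Ppl and Dsp, which rest on 1 to 31 reads.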
